A study of Mus musculus with 5 samples.

Results

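The 10 genes described here encode the core machinery of mitochondrial fusion and fission: Mfn1, Mfn2, Opa1, Oma1, Yme1l1, Dnm1l, Fis1, Mff, Mief1 and Mief2. They were found by gene symbol among the 17015 genes of the deposited table, where each symbol matched 1 entry. RNA-seq had been performed on tibialis anterior (TA), a fast-twitch muscle of the lower leg, from sedentary male mice at 8 weeks of age. Of the 5 libraries, 3 were labelled controls (WT control) and 2 were labelled Nrip1KO (skmNrip1-/-). Both groups carry a floxed Nrip1 allele (Nrip1 fl/fl) on a C57BL/6J background, crossed with Cre mice on C57BL/6JN. WT control mice were littermates without Cre, whereas skmNrip1-/- mice carried a Cre recombinase driven by the myogenin promoter, which acts in differentiating skeletal muscle cells. Other cells of the muscle therefore keep the gene. Nrip1 encodes RIP140, a nuclear receptor corepressor that restrains genes of oxidative metabolism.

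Mitochondria form a network that is remodeled by joining and division. The mitofusins Mfn1 and Mfn2 are GTPases that tether and merge outer membranes, and the dynamin-like GTPase Opa1 merges inner membranes and shapes the cristae. The proteases Oma1 and Yme1l1 cut Opa1 into short forms, so that the balance between long and short Opa1 protein sets how readily inner membranes join. Division is carried out by the cytosolic dynamin Drp1, the product of Dnm1l, which is recruited by outer membrane adaptors encoded by Mff, Mief1 and Mief2, while Fis1 is a further outer membrane protein of fission. In muscle, the transcription of mitofusin genes is known to respond to the coactivators PGC-1α and PGC-1β acting with estrogen-related receptors.

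The deposited values are FPKM, fragment numbers expressed per transcript length, so levels can be compared between genes. How libraries were scaled to each other is not given in the sources used here. The median ratio of a library's values to each gene's mean on the log scale was 1 in all 5 libraries, while their FPKM sums ran from 969144 to 1288038. Library values are given in the order of the replicate numbers. Total fragments per library are not given. Steps between the low values of genes with a single annotated transcript give the divisor that scales a library's values. It was 0.81 to 1.1 times that of WT control replicate 1, the lowest being replicate 1 labelled skmNrip1-/-. This divisor need not follow the total fragments of a library. The targeted gene, Nrip1, had 4.64, 7.69 and 6.55 FPKM in WT control TA and 25.3 and 22.5 FPKM in TA labelled skmNrip1-/-, a difference of 1.94 on the log2 scale (adjusted p = 0.0261 from limma), called as higher but not without WT control replicate 3 or either library labelled skmNrip1-/- (adjusted p = 0.146, 0.204 and 0.142 from limma). The level therefore shows no loss of the transcript in these libraries. The paper describes this line as deficient in the Nrip1 product. For its validation it measured Nrip1 expression and the protein in gastrocnemius and heart, and those values were not used here. Cre removes the exon with the coding sequence and the table gives 1 value per gene, so which exons the fragments came from is unknown, and every direction below rests on the labels. All libraries held fast muscle markers at high summed levels, 70900 to 96850 FPKM over 7 genes in WT control TA and 67790 and 65490 FPKM in TA labelled skmNrip1-/-. Summed erythroid markers were 511 to 764 FPKM in WT control TA and 996 and 827 FPKM in TA labelled skmNrip1-/-, and 4 of the 5 genes were above every WT control library in both, as were 15.8% of all genes tested. Slow muscle markers summed to 112, 148 and 316 FPKM against 122 and 124 FPKM, and their median log2 fold change was 0.003. Within that list Myl2 was at 2.03, 1.85 and 9.68 FPKM against 42.1 and 33.6 FPKM, whereas Myl3 lay the other way, at 89.6, 124 and 285 FPKM against 54.1 and 71.3 FPKM. Endothelial markers summed to 119 to 133 FPKM against 117 and 113 FPKM. No marker was called, and the summed levels of adipocytes, macrophages, Schwann cells, fibroblasts and smooth muscle overlapped between the groups, with Retn, Lep, Adgre1 and Sox10 under 0.5 FPKM on average. The part of these cell types in the values below was not tested. In whole muscle, fewer cells of a type and less RNA per cell cannot be told apart.

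To ask whether the genes of fusion and fission differed by genotype, log2(FPKM + 0.1) was compared with limma over the 12148 genes whose mean reached 0.5 FPKM, a minimum that all 10 members passed. A gene was called where its adjusted p did not exceed 0.05 and it differed 1.2-fold or more. None of the 10 was called, against 0.453% of all genes tested. The smallest adjusted p was 0.381 from limma, for Mfn1. At an unadjusted p of 0.05 or less stood 1 member, Mfn1, whereas 11.9% of all genes tested did. Both libraries labelled skmNrip1-/- lay above every WT control library for 3 members, Mfn1, Mfn2 and Oma1 (15.8% of all genes tested), and below every WT control library for 1 member, Mief2 (14.4% of all genes tested). For the other 6 the groups overlapped. The 95% interval of each member still holds a 1.2-fold difference in at least 1 direction, so differences of that size may have been missed.

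The 5 genes of fusion and its proteases had log2 fold changes from 0.063 for Yme1l1 to 0.48 for Mfn1, all above 0 at the deposited scaling. The 5 genes of fission ranged from -0.18 for Mief2 to 0.26 for Dnm1l, with 2 above 0. The median over all 10 was 0.15, against -0.001 over all genes tested. The median size of the change regardless of sign was 0.19 for the members and 0.15 for all genes tested. The direction depends on how libraries are scaled. Transcripts of mitochondrial DNA made up 45.4% to 50.7% of the FPKM sum in WT control TA and 58.6% and 60.9% in TA labelled skmNrip1-/-, and rescaling each library to TPM moved the median of all genes to -0.29. At that scale only Mfn1 and Opa1 stayed above 0, and the members had a median of -0.15, which exceeds that of all genes by 0.14. With mitochondrial DNA transcripts left out of the TPM sum, 9 of 10 members were above 0.

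**Figure D1:**
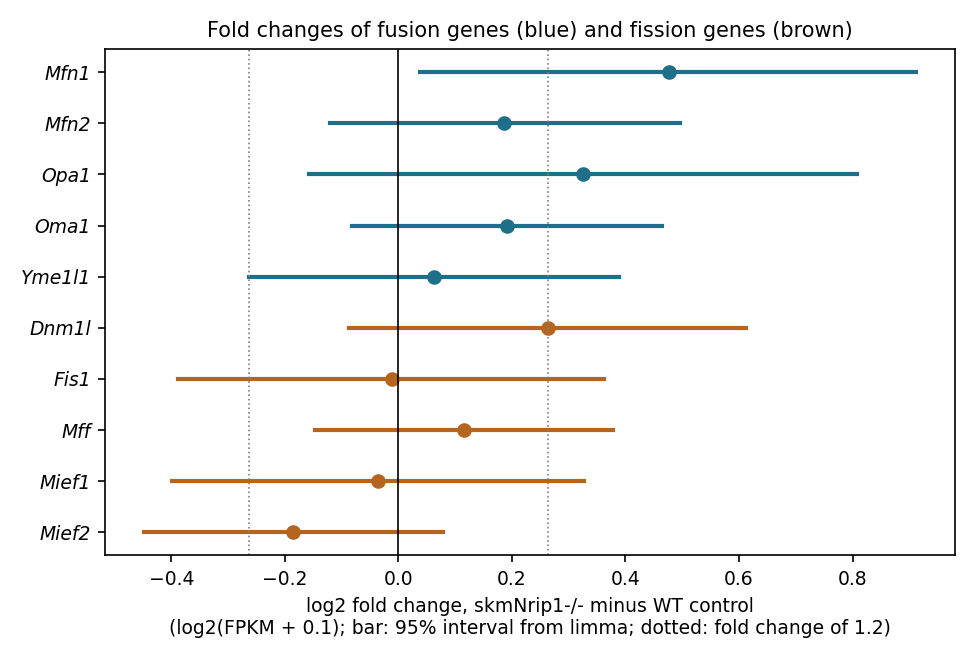
Log2 fold change of each gene in TA labelled skmNrip1-/- against WT control TA, on the log2(FPKM + 0.1) scale. Blue marks fusion genes and the genes of the Opa1 proteases, Oma1 and Yme1l1, and brown marks fission genes. Points are estimates and bars 95% intervals from limma at the deposited scaling. Only the interval of Mfn1, from 0.04 to 0.91, does not include 0, and rescaling to TPM moves Mfn2, Oma1, Yme1l1, Dnm1l and Mff below 0. The same rescaling moves the median of all genes tested to -0.29.

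In WT control TA the mitofusins stood highest among the members, with Mfn2 at 168 ± 18.9 FPKM (SD, n = 3) and Mfn1 at 130 ± 27.5 FPKM. They were followed by Fis1 (95.6 ± 16.0 FPKM), Mff (77.5 ± 6.26 FPKM) and Mief2 (64.7 ± 5.50 FPKM). Opa1 (30.4 ± 7.23 FPKM) and Dnm1l (23.5 ± 3.47 FPKM), the GTPases that execute inner membrane fusion and fission, were lower than the adaptors Mff and Mief2 in every library. The proteases Yme1l1 (16.1 ± 2.09 FPKM) and Oma1 (15.6 ± 0.695 FPKM) came next, and Mief1 was lowest at 8.19 ± 1.25 FPKM. The ranges of WT control libraries overlapped between Mfn2 and Mfn1, Mfn1 and Fis1, Fis1 and Mff, Opa1 and Dnm1l, and Yme1l1 and Oma1, so these neighbours are not separated by their spread. Mff and Mief2, Mief2 and Opa1, Dnm1l and Yme1l1, and Oma1 and Mief1 did not overlap. Mfn2 held the highest rank and Mief1 the lowest in all 5 libraries. Mfn2 and Mfn1 stood at the 96.6th and 95.8th percentile of the genes tested by WT control level, and Mief1 at the 58.0th.

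**Figure D2:**
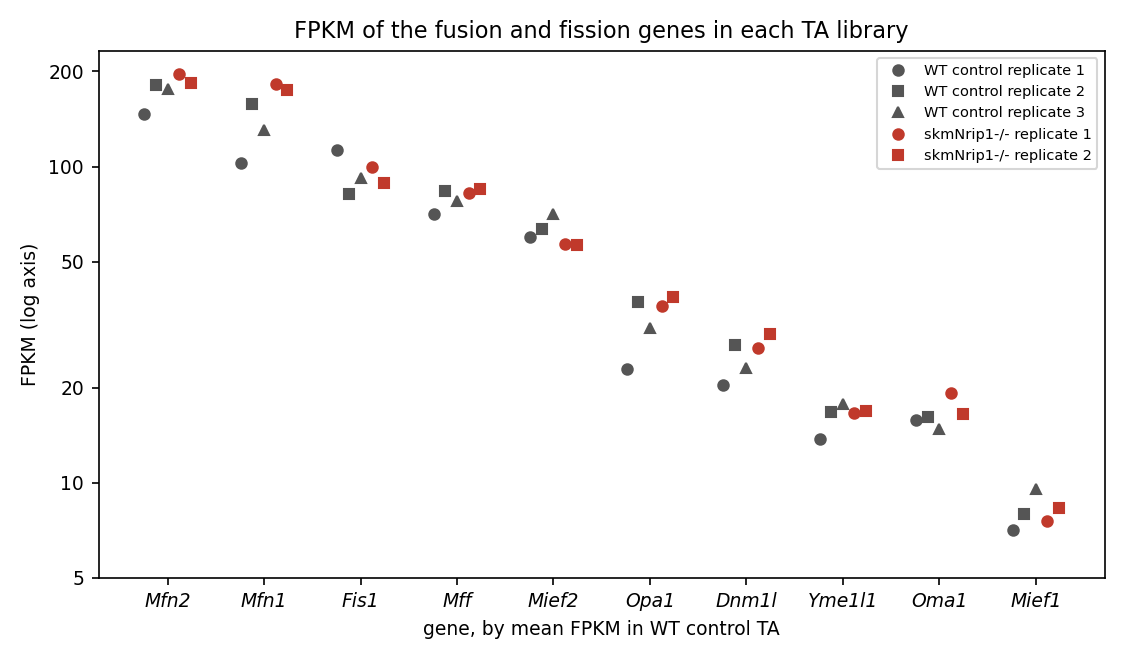
FPKM of each member in the 5 TA libraries, on a log axis, ordered by the WT control mean. Gray points are WT control libraries and red points libraries labelled skmNrip1-/-. The order of group means is the same in both groups except that Oma1 lies above Yme1l1 in TA labelled skmNrip1-/-, from Mfn2 at 146 to 197 FPKM down to Mief1 at 7.07 to 9.53 FPKM, and WT control replicate 1 lies lowest among the WT control libraries for 8 of the 10 genes.

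Mfn1 (ENSMUSG00000027668, chromosome 3, 32529465 to 32579239, plus strand of GRCm38) had the largest difference of the members. Its level was 103, 158 and 131 FPKM in the WT control libraries, and 183 and 175 FPKM in those labelled skmNrip1-/-. Both of the latter lay above the highest WT control library, while the WT control libraries themselves spread by a coefficient of variation of 21.1%. Levels differed 1.39-fold (95% interval 1.03 to 1.88), or by 0.48 ± 0.18 (SE) on the log2 scale (adjusted p = 0.381 from limma). The unadjusted p from limma was 0.0368, and it was 0.0774 without WT control replicate 3 and 0.442 after rescaling to TPM. That rescaling moves the median of all genes tested to -0.29, and Mfn1 exceeded this median by 0.47. The log2 fold change was 0.44 without replicate 1 labelled skmNrip1-/- and 0.51 without replicate 2. Leaving out WT control replicate 1, the lowest library, gave a log2 fold change of 0.32 (limma adjusted p = 0.379), and over all alternatives it ranged from 0.18 to 0.62, with adjusted p from 0.166 to 0.809 from limma.

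Mfn2 (ENSMUSG00000029020, chromosome 4, 147873599 to 147904704, minus strand), which also tethers mitochondria to the endoplasmic reticulum, was more stable. The WT control libraries had 146, 182 and 176 FPKM, and the libraries labelled skmNrip1-/- had 197 and 184 FPKM. The groups did not overlap, but the gap between the nearest libraries was small beside the range within WT control TA. The log2 fold change was 0.19 (95% interval -0.12 to 0.50, adjusted p = 0.644 from limma), and it was 0.091 without WT control replicate 1 and -0.11 after rescaling to TPM.

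Opa1 (ENSMUSG00000038084, chromosome 16, 29579334 to 29654884, plus strand) had 23.0, 37.4 and 30.9 FPKM in WT control TA and 36.1 and 38.7 FPKM in TA labelled skmNrip1-/-. WT control replicate 2 fell between the libraries labelled skmNrip1-/-, so the groups overlapped. The log2 fold change after rescaling to TPM was 0.026, and without WT control replicate 1, the lowest library, it was 0.14. With a coefficient of variation of 23.8%, Opa1 spread the most of all members among WT control libraries, and its log2 fold change of 0.32 had a 95% interval from -0.16 to 0.81 (adjusted p = 0.599 from limma). Levels of Opa1 RNA do not show how its protein is cut.

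Oma1 (ENSMUSG00000035069, chromosome 4, 103313812 to 103371868, plus strand), the stress-activated protease, varied least in WT control TA, at 15.8, 16.1 and 14.8 FPKM. TA labelled skmNrip1-/- had 19.2 and 16.5 FPKM. The lower of these was just above the highest WT control library. The log2 fold change was 0.19 (95% interval -0.08 to 0.46, adjusted p = 0.585 from limma), and -0.11 after rescaling to TPM. It was 0.085 without replicate 1 labelled skmNrip1-/- and 0.30 without replicate 2. Yme1l1 (ENSMUSG00000026775, chromosome 2, 23156369 to 23199260, plus strand), the protease that cuts Opa1 under basal conditions, had 13.8, 16.7 and 17.8 FPKM against 16.6 and 16.8 FPKM. Both libraries labelled skmNrip1-/- lay inside the WT control range. Its log2 fold change of 0.063 (95% interval -0.26 to 0.39) changed sign when WT control replicate 1 was left out, to -0.046, and was -0.235 after rescaling to TPM. At that scale Yme1l1 lay 0.055 above the median of all genes.

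Dnm1l (ENSMUSG00000022789, chromosome 16, 16312230 to 16358959, minus strand), the fission dynamin, had 20.3, 27.2 and 23.1 FPKM in WT control TA. TA labelled skmNrip1-/- had 26.6 and 29.6 FPKM. The groups overlapped, since WT control replicate 2 exceeded 1 of these libraries. The log2 fold change was 0.26 (95% interval -0.09 to 0.61, adjusted p = 0.555 from limma), with 0.16 without WT control replicate 1 and -0.035 after rescaling to TPM. At the TPM scale Dnm1l lay 0.255 above the median of all genes.

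Among the outer membrane proteins of fission, Mief2 (ENSMUSG00000018599, chromosome 11, 60728398 to 60732951, plus strand) was the member with the lowest fold change. It had 59.9, 63.5 and 70.7 FPKM in WT control TA and 56.9 and 56.6 FPKM in TA labelled skmNrip1-/-. Both of the latter lay below every WT control library, and the log2 fold change was -0.18 (95% interval -0.45 to 0.08, adjusted p = 0.585 from limma). It was -0.12 without WT control replicate 3, the highest library. Relative to the median of all genes, Mief2 was at -0.19 after rescaling to TPM and at -0.18 at the deposited scaling. Over all alternatives Mief2 stayed below 0, from -0.48 after rescaling to TPM to -0.077 after removal of each library's trend with GC content, with adjusted p from 0.108 to 0.951 from limma. Its paralog Mief1 (ENSMUSG00000022412, chromosome 15, 80234018 to 80253371, plus strand) had 7.07, 7.99 and 9.53 FPKM against 7.56 and 8.31 FPKM. These groups overlapped, with a log2 fold change of -0.036 (95% interval -0.40 to 0.33) that changed sign with the scaling and with the libraries left out.

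Mff (ENSMUSG00000026150, chromosome 1, 82724890 to 82752394, plus strand), the main adaptor of Drp1, had 71.0, 83.5 and 77.9 FPKM in WT control TA and 82.5 and 85.1 FPKM in TA labelled skmNrip1-/-. The groups overlapped, with a log2 fold change of 0.12 (95% interval -0.15 to 0.38, adjusted p = 0.753 from limma) that was 0.055 without WT control replicate 1 and -0.18 after rescaling to TPM. That last value lay 0.11 above the median of all genes at the TPM scale. Fis1 (ENSMUSG00000019054, chromosome 5, 136953275 to 136966234, plus strand) had 113, 81.6 and 92.2 FPKM against 99.8 and 88.4 FPKM. The libraries labelled skmNrip1-/- lay inside the WT control range, and the log2 fold change was -0.012 (95% interval -0.39 to 0.36). In the annotation, Dnm1l, Mff and Mfn2 overlap genes on the opposite strand, and Mief1 a protein-coding model on its own strand. The library kit does not mark strand, so fragments of opposite strands cannot be told apart, and how fragments were shared between overlapping genes was not stated.

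WT control replicate 1 stood apart for the members. It was the lowest WT control library for 8 of the 10 members, whereas over all genes tested it was the lowest for 36.6%. The exceptions were Fis1, for which it was the highest, and Oma1. The median deviation of the members from each gene's mean over the 5 libraries was -0.21 in this library on the log2 scale, against 0.047 and -0.035 in the other WT control libraries and 0.080 and 0.055 in those labelled skmNrip1-/-. In the same library, the median deviation was 0.15 over genes whose longest annotated transcript is at most 2018 nucleotides and -0.10 over genes for which it is at least 4695 nucleotides. By this measure Fis1 is the shortest of the members, at 948 nucleotides, and Opa1 the longest, at 6230 nucleotides. The part of transcript length in these values was not tested.

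Ratios between members within a library do not depend on the scaling between libraries, and 6 ratios were taken as a description. The log2 ratio of Mfn2 to Mfn1 was 0.51, 0.20 and 0.43 in WT control TA and 0.11 and 0.077 in TA labelled skmNrip1-/-. It was lower in both of the latter than in any WT control library, with means of 0.38 ± 0.16 (SD, n = 3) and 0.092 ± 0.022 (SD, n = 2). Of single genes tested, 15.8% lay above and 14.4% below every WT control library in both libraries labelled skmNrip1-/-. The share of other gene pairs that separate was not computed, so this ratio is a description only. Ratios do not remove a trend with GC content. Over genes of at most 44.9% GC, median deviations were -0.067, 0.035 and -0.082 in WT control TA against 0.035 and 0.077. The longest annotated transcripts of Mfn1 and Mfn2 have 45.9% and 53.1% GC. With the GC trend removed, log2 fold changes were 0.42 for Mfn1 and 0.22 for Mfn2, in place of 0.48 and 0.19. The part of GC content was not tested. The other 5 ratios overlapped between the groups. The log2 ratio of Mfn2 to Fis1 was 0.37, 1.15 and 0.93 against 0.98 and 1.06, and that of Opa1 to its protease Oma1 was 0.54, 1.21 and 1.06 against 0.92 and 1.23. The log2 ratio of Opa1 to Dnm1l, which sets inner membrane fusion beside fission, was 0.18, 0.46 and 0.42 against 0.44 and 0.38. WT control replicate 1 was the lowest library for these 3 ratios. Within the fission adaptors, the log2 ratio of Mief2 to Mief1 was 3.08, 2.99 and 2.89 against 2.91 and 2.77, and that of Mff to Fis1 was -0.67, 0.034 and -0.24 against -0.28 and -0.055.

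**Figure D3:**
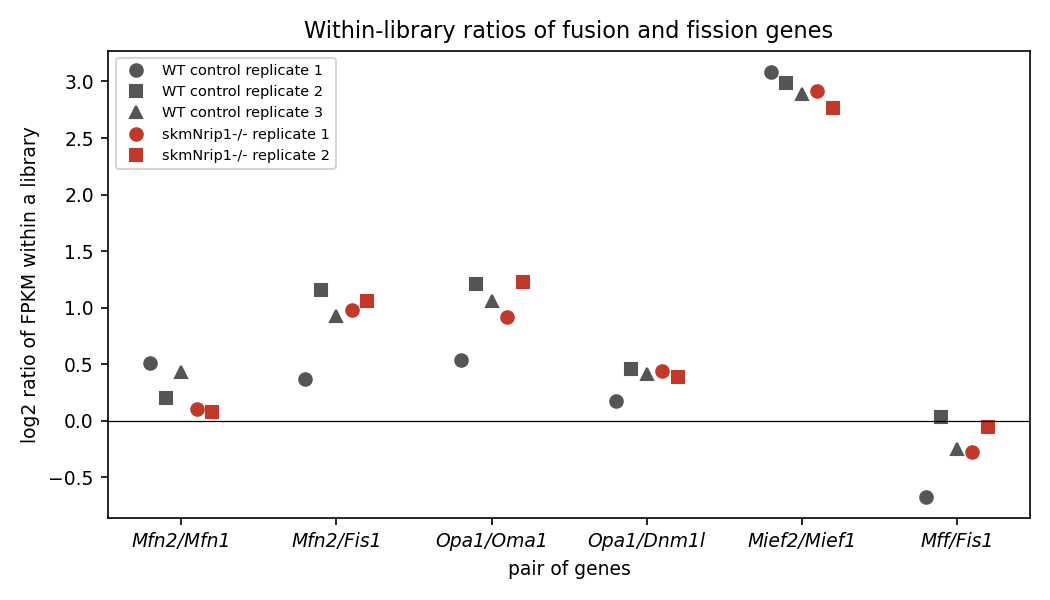
Log2 ratio of FPKM between pairs of members within each of the 5 TA libraries. Gray points are WT control libraries and red points libraries labelled skmNrip1-/-. Of the 6 pairs, only Mfn2 to Mfn1 has both red points outside the WT control range, at 0.11 and 0.077 against 0.20 to 0.51. The share of other gene pairs that separate was not computed.

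Other genes of mitochondrial dynamics were taken from 6 lists, of which 37 genes passed the FPKM minimum. None was called, 7 were higher and 1 was lower at an unadjusted p of 0.05 or less, and 33 had a log2 fold change above 0, with a median of 0.15. Of all genes tested, 0.453% were called, 11.9% stood at such an unadjusted p in either direction, and 49.9% were above 0. The sign of this median, as of those below, holds for the deposited scaling. After rescaling to TPM the median of all genes tested was itself -0.29, which applies to the TPM values below. Of the 8 genes tested that build the MICOS complex and its outer membrane partner, which holds cristae junctions, all 8 were above 0, from 0.013 for Chchd6 to 0.27 for Immt, with a median of 0.22, although Immt was at -0.029 and Chchd6 at -0.27 after rescaling to TPM. In 6 of the 8 both libraries labelled skmNrip1-/- were above every WT control library, against 15.8% of all genes tested. This was not particular to MICOS. The same held for 18 of the 37 genes, MICOS included, and for 5 of the 9 other fission and shape factors. Of the 37 genes, 1 lay below every WT control library in both (14.4% of all genes tested). The partners of Opa1 in inner membrane quality control had a median of 0.075 over 6 genes, from -0.13 for the protease gene Spg7 to 0.38 for its partner Afg3l2. Immt, which encodes the core MICOS protein mitofilin, had 127, 145 and 128 FPKM in WT control TA. It had 165 and 157 FPKM in TA labelled skmNrip1-/-, a log2 fold change of 0.27 (limma adjusted p = 0.406).

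The largest difference among these genes was that of Akap1, which anchors protein kinase A at the outer membrane, where the kinase phosphorylates Drp1. Its level was 27.5, 42.8 and 29.5 FPKM in WT control TA and 53.7 and 53.4 FPKM in TA labelled skmNrip1-/-, which did not overlap. The difference was 0.71 ± 0.20 (SE) on the log2 scale (adjusted p = 0.248 from limma). Akap1 was called only when WT control replicate 2, its highest WT control library, was left out (0.91, adjusted p = 0.0453 from limma), and its adjusted p under the other alternatives was above the threshold. The 7 regulators tested were all above 0, with a median of 0.16, the lowest being the deubiquitinase gene Usp30 at 0.024, which was -0.27 after rescaling to TPM. Among 9 other fission and shape factors, the range ran from -0.43 for the formin gene Inf2 to 0.43 for Mtfr1. Inf2, which polymerizes actin at sites of division, had 6.59, 5.28 and 5.83 FPKM against 4.75 and 3.98 FPKM (adjusted p = 0.337 from limma). The 3 other fusion factors tested ranged from 0.062 for Miga1 to 0.41 for Miga2, and the 4 genes of mitochondrial transport from -0.12 for Rhot2 to 0.41 for Trak2.

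**Figure D4:**
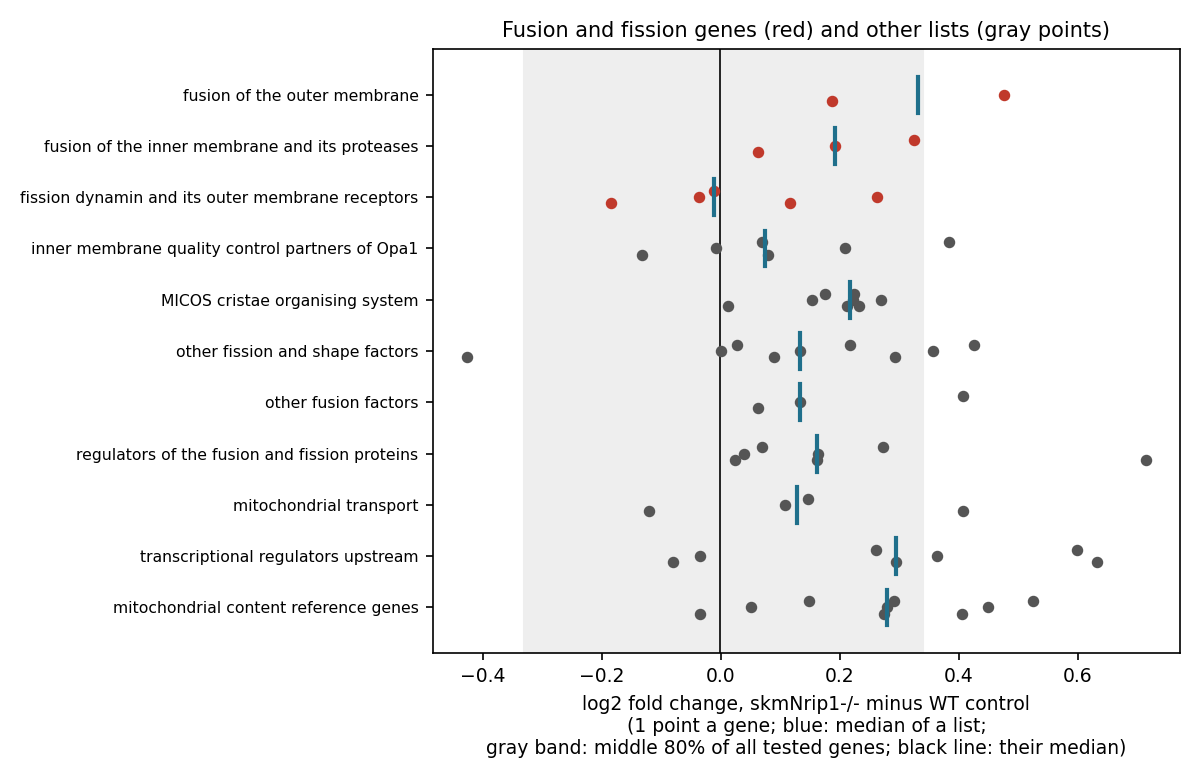
Log2 fold changes in TA labelled skmNrip1-/- against WT control TA at the deposited scaling, 1 point per gene, for the members (red) and the other lists (gray points), with list medians as blue bars. The gray band holds the middle 80% of all genes tested, from -0.33 to 0.34. Of the members, Mfn1 at 0.48 alone lies outside the band. Most other genes lie within it. Above it lie Akap1 (0.71), Esrrb (0.63), Ppargc1b (0.60), Atp5a1 (0.525), Sdha (0.45) and Mtfr1 (0.43). Miga2 and Trak2 (both 0.41), Hspd1 (0.405), Afg3l2 (0.38), Esrra and Slc25a46 (both 0.36) also lie above it, and Inf2 (-0.43) lies below it. After rescaling to TPM the median of all genes is -0.29.

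Of the transcriptional regulators known to act on these genes, none of the 7 tested was called, and 5 were above 0, with a median of 0.29. Ppargc1b, which encodes PGC-1β, had 3.39, 4.94 and 4.39 FPKM in WT control TA and 6.30 and 6.49 FPKM in TA labelled skmNrip1-/-, a log2 fold change of 0.60 (limma adjusted p = 0.271). Esrra, which encodes the estrogen-related receptor ERRα, had 81.3, 90.4 and 83.1 FPKM against 107 and 111 FPKM, a log2 fold change of 0.36 (limma adjusted p = 0.254). For both genes the groups did not overlap. Ppargc1a, which encodes PGC-1α, had a log2 fold change of -0.035 with overlapping groups. Esrrb (0.63), Gabpa (0.29), Esrrg (0.26) and Nrf1 (-0.080) were not called either, with Esrrg at -0.033 and Gabpa at -0.001 after rescaling to TPM, and of these Esrrb alone had groups that did not overlap.

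Genes often used as a measure of mitochondrial content were set beside the members. None of the 9 was called. In 6 of the 9 both libraries labelled skmNrip1-/- were above every WT control library, against 15.8% of all genes tested. Of the 9 genes, 8 were above 0, and their median log2 fold change was 0.28, against 0.15 for the members. The highest was that of the ATP synthase gene Atp5a1, which had 582, 659 and 583 FPKM in WT control TA and 901 and 846 FPKM in TA labelled skmNrip1-/-. This is 0.53 on the log2 scale (adjusted p = 0.181 from limma), and the groups did not overlap. The import receptor gene Tomm20 was the lowest at -0.035. Whether the members differ from these genes was not tested.

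Promoter sequences from RefSeq (GRCm38.p6), each from 250 bases before to 50 bases after an annotated start, were found for all 10 members, in 15 windows. Motifs of factors tied to mitochondrial genes were searched as exact letters on both strands. The core site of GABP, ACTTCCGG, was present in 4 windows of 3 members, Mfn1, Fis1 and Mief1, and in 3.89% of all 32851 windows. The core of the NRF1 site, GCATGCGC, was present in 1 window, that of Opa1, and in 2.71% of all windows. The core site of estrogen-related receptors, AAGGTCA, was in none of the 15 windows and in 4.72% of all windows. A pair of AGGTCA copies 1 base apart, as bound by PPAR, was also in none, and in 0.0396% of all windows. The E-box CACGTG was in the Mief2 window and in 7.15% of all windows. The GABP and NRF1 matches before the start are printed with 10 flanking bases, 5′ to 3′ on the plus strand, which is the gene's strand, and with the match in capitals, because Mfn1, the member with the largest difference, shares its site with members whose values overlapped between the groups. CCGGAAGT is the GABP core read from the opposite strand. In Opa1, matches on both strands overlap and are shown as 1 run.
Mfn1, chr3:32529428-32529455: atccgaagcgCCGGAAGTagccgcccct
Fis1, chr5:136953247-136953274: gaggcaccacCCGGAAGTtcaggcttcc
Mief1, chr15:80234005-80234032: gaggggccgaCCGGAAGTgcttccgcct
Opa1, chr16:29579265-29579294: gtggctccccGCGCATGCGCatgtcatccg
Counted from the RefSeq start, which in Mfn1 and Mief1 lies after the GENCODE start given above, the match lies 36 bases before it in Mfn1, 10 in Fis1, 57 in Mief1 and 49 in Opa1. The Mief1 match spans the GENCODE start of that gene. A further match lies 11 bases after the start in Mief1. The match in the other Fis1 window lies 19 bases after the start of that window's transcript. Whether it is the same site as the printed Fis1 match was not determined. Mfn1, Fis1 and Mief1 share the core but had log2 fold changes of 0.48, -0.012 and -0.036. A match describes the letters in the window and not binding.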

How the data were processed

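RNA-seq was analysed for 5 TA libraries, grouped by their labels. Library names in the column headers assigned each column to 1 sample. Per the methods and labels, the authors quantified 150-bp paired-end reads on mm10 using Salmon (v1.10.2) and tximport and deposited gene FPKM, but how FPKM were computed is not given in the sources used here. The table's log2 fold changes and adjusted p-values from the authors' DESeq2 (v1.44.0) were not used. Positions came from GENCODE M21 (GRCm38), which held 16996 of the 17015 IDs.

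Differences were fitted with limma 3.58.1 (R 4.3.3; lmFit, eBayes with trend) on log2(FPKM + 0.1), with Benjamini-Hochberg adjustment over 12148 genes. Fold changes on this scale understate those of low genes. The fit was tested on simulated data. FPKM are not counts, so no counting intervals are given. The legend for these data gives 3 per group, and the labels name no animal, so p-values measure the spread between libraries. Figures were drawn with matplotlib 3.10.9. Genes named were the members, Nrip1, the highest and lowest of each list, all upstream regulators, and markers near 0, while Myl2 and Myl3 were added after their values were seen. Members and lists were chosen with earlier results of these data known. Alternatives were other pseudocounts, minimums, scalings, eBayes settings and thresholds, a replicate block, each library left out, and, chosen after seeing the data, removal of a lowess trend (span 0.3) on GC content.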

Additional observations from a re-analysis of the deposited data

How the results depend on the processing

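No member was called under any alternative run, and Mfn1, Opa1 and Mief2 kept their signs in all of them. The count of members at an unadjusted p of 0.05 or less was 0 without the eBayes trend and 0 with the replicate block, and from 0 to 3 with 1 library left out. It was 2 without WT control replicate 1 (Mfn1, Mief2), 3 without WT control replicate 2 (Mfn1, Opa1, Dnm1l), and 0 without WT control replicate 3 or either library labelled skmNrip1-/-. After rescaling to TPM this count was 1, but the member was Mief2 (unadjusted p = 0.0159 from limma) and not Mfn1 (unadjusted p = 0.442 from limma). At that scale the median of the members was -0.15, and 88 genes were called (29 higher, 59 lower) in place of 55 (45 higher, 10 lower). The genes called numbered 25 without the eBayes trend, 22 with the replicate block, 104 with the adjusted p threshold at 0.1, and from 9 to 66 with 1 library left out, the lowest without replicate 2 labelled skmNrip1-/-. Nothing in the labels ties replicate numbers across groups, so no pairing was assumed. The deviations of same-numbered libraries correlated by 0.065 and 0.095. With 2 libraries labelled skmNrip1-/-, the deviations of 1 mirror those of the other, so these correlations cannot decide on pairing. The block changed the call of Nrip1 (adjusted p = 0.128 from limma). Nrip1 was also not called without the eBayes trend, without WT control replicate 3, or without either library labelled skmNrip1-/- (adjusted p from 0.0769 to 0.204 from limma). Signs turned as follows, and after rescaling to TPM the median of all genes tested was itself -0.29. After rescaling to TPM, log2 fold changes were -0.11 for Mfn2, -0.11 for Oma1, -0.235 for Yme1l1, -0.035 for Dnm1l, -0.18 for Mff, -0.029 for Immt, -0.27 for Chchd6, -0.23 for Miga1, -0.27 for Usp30, -0.033 for Esrrg and -0.001 for Gabpa. With TPM over nuclear genes they were 0.063 for Fis1, 0.039 for Mief1, 0.040 for Tomm20 and 0.040 for Ppargc1a. With the replicate block they were 0.077 for Mief1 and 0.048 for Tomm20. With the GC trend removed they were -0.061 for Yme1l1, 0.045 for Fis1, -0.017 for Mff and -0.016 for Miga1. Without 1 library at a time, the ranges that crossed 0 were -0.046 to 0.14 for Yme1l1, -0.12 to 0.12 for Fis1, -0.14 to 0.077 for Mief1, -0.18 to 0.16 for Chchd6, -0.12 to 0.24 for Miga1, -0.11 to 0.16 for Usp30, -0.46 to 0.30 for Nrf1, -0.15 to 0.078 for Tomm20 and -0.25 to 0.16 for Ppargc1a. The cause was not tested. With 5 libraries and no fragment totals, the spread between libraries limits what can be seen: the 95% intervals of the members reach from -0.45 to 0.91 on the log2 scale.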
